A study of Mus musculus with 6 samples.

Results

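The genes described here encode the proteins through which an MLL fusion oncoprotein is held on chromatin and drives transcription: Kmt2a, Men1, Psip1, Dot1l, Mllt1, Mllt3, Aff1, Aff4 and Cdk9. They were chosen by name, as genes of MLL, menin, DOT1L and the super elongation complex, and number 9 of the 49585 genes counted; all 9 passed the filter on low counts, as did 13744 genes in all. RNA with poly(A) tails was sequenced from mouse leukaemia cells of bone marrow origin. The labels name them MA9, which commonly stands for the MLL-AF9 fusion. By their labels, the Gata2 KO cells carried a deletion of Gata2, which encodes a transcription factor active in haematopoietic stem cells. The Gata2 f/f cells carried floxed Gata2 alleles. The design gives 3 independent samples of each genotype, without saying whether they were separate leukaemias, so p-values reflect only the spread among them, which may be technical. Both genotypes had been grown with IL-3, IL-6 and SCF and held for 18 h in 5 uM Nutlin, which blocks the binding of MDM2 to p53. No culture without Nutlin was analysed here. The sample descriptions call the Gata2 KO samples Cre, so Cre and the deletion cannot be told apart. The sources used here give neither the promoter that drives Cre, nor the time since deletion, nor the way the fusion was introduced.

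As background, MLL, the product of Kmt2a, is a histone methyltransferase, and in MLL-fusion leukaemia its amino-terminal part is joined to a partner such as AF9, the product of Mllt3. The MLL part binds menin, and menin and LEDGF together hold the fusion on chromatin at genes such as Hoxa9 and Meis1. The partner part recruits either DOT1L, which methylates histone H3, or the super elongation complex, in which AFF scaffold proteins join ENL or AF9 to P-TEFb, the kinase of CDK9 and a cyclin T that releases paused RNA polymerase II.

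Total counts per library lay between 18651102 and 26440960 for Gata2 KO and between 17138687 and 25158033 for Gata2 f/f. Gata2 itself was at 5.44, 43.3 and 4.33 CPM in libraries labelled Gata2 KO 1, 2 and 3, against 33.6, 22.3 and 18.4 CPM in Gata2 f/f 1, 2 and 3; CPM is the count scaled to a common library size, here with TMM factors. At its targeted gene the library labelled Gata2 KO 2 lay above all 3 Gata2 f/f libraries, which goes against that label. A count over the whole gene does not show whether the floxed part was deleted. All directions given here include this library unless stated. The leukaemia and progenitor markers (8 of 8 detected, led by the myeloid transcription factor gene Spi1) summed to 1153 to 2197 CPM in Gata2 KO and 1106 to 1271 CPM in Gata2 f/f. Erythroid, T cell and B cell markers summed to at most 10.7 CPM in any library, and the B cell factor gene Pax5 was at 0 in all 6. The stromal and endothelial list summed to 141 to 210 CPM in Gata2 KO and 126 to 174 CPM in Gata2 f/f, led by Pecam1, which blood cells also express. Myeloid maturation markers varied more and are given further below.

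None of the 9 genes passed the test between Gata2 KO and Gata2 f/f: without pairing by number, each difference was within the spread between libraries. The edgeR quasi-likelihood test with Benjamini-Hochberg adjustment called 0 of the 9 genes and 0 of all 13744 tested genes (0.0%), and each of the 9 had an adjusted p of 1.00. At an unadjusted p under 0.05 it held 0 of the 9 and 171 of all tested genes. With the library number as a replicate block, edgeR held 1473 and DESeq2 1390 of all tested genes at that level. DESeq2 called 7 of all tested genes without a replicate block and 222 with it (1.62%), and limma voom called 0; each called 0 of the 9. The genotypes overlapped in all 9, so 0 of 9 were without overlap, against 5.42% of all tested genes in either direction. The log2 fold change of Gata2 KO over Gata2 f/f was positive for 6 genes and negative for 3, with a median of 0.11 against 0.02 over all tested genes. With the library labelled Gata2 KO 2 left out, edgeR again called 0 of the 9 (smallest adjusted p = 0.915, Psip1), and their log2 fold changes lay between -0.61 for Psip1 and 0.34 for Dot1l. In bulk RNA, fewer cells of a type and less RNA per cell cannot be told apart.

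**Figure D1:**
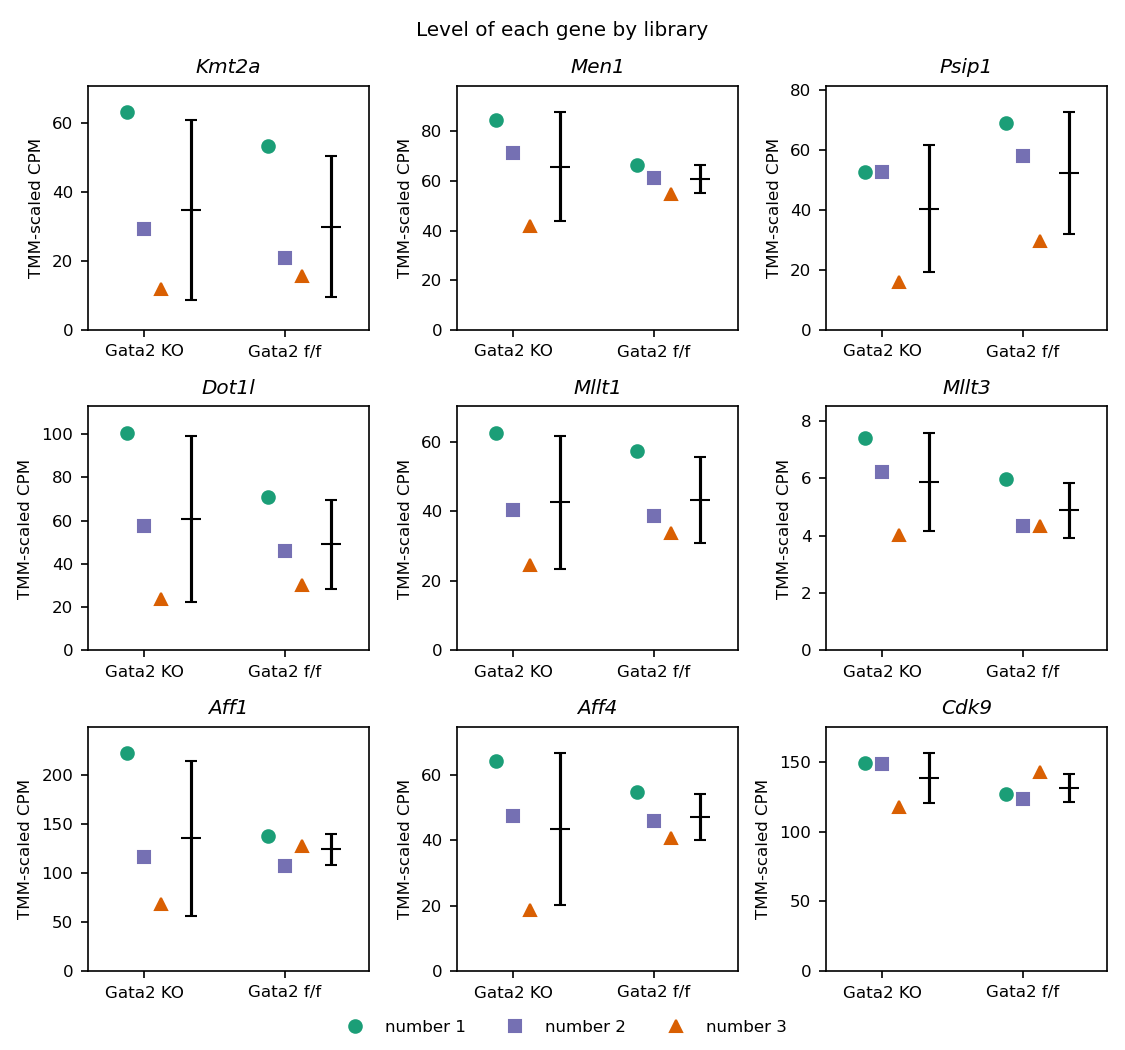
Level of each of the 9 genes in TMM-scaled CPM (vertical axes, each from 0) in the Gata2 KO libraries on the left and the Gata2 f/f libraries on the right. Points are single libraries, with colour and shape for the library number, and bars give the mean and SD of 3 libraries. The library labelled Gata2 KO 3 is the lowest of the 6 in every panel.

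Kmt2a, which gives an MLL fusion its chromatin-binding part and also encodes the intact methyltransferase, varied most widely of the 9 between libraries. Kmt2a (ENSMUSG00000002028.13, protein-coding, GRCm38 chromosome 9, 44803355 to 44881296, minus strand) was at 63.3, 29.3 and 11.8 CPM in libraries labelled Gata2 KO 1, 2 and 3, against 53.5, 20.9 and 15.7 CPM in Gata2 f/f 1, 2 and 3. Both genotypes ran in the same order, high in number 1 and low in number 3, and they overlapped. The means were 34.8 ± 26.2 CPM in Gata2 KO and 30.0 ± 20.5 CPM in Gata2 f/f (SD, n = 3 each). The log2 fold change, with its standard error, was 0.21 ± 0.68 (edgeR, adjusted p = 1.00) with a 95% interval of -1.39 to 1.82. The 5.38-fold range over the 6 libraries was wider than that of 88.7% of tested genes, whose median range was 2.20-fold. The direction of the genotype difference was not stable, since without the library labelled Gata2 KO 1 the log2 fold change was -0.56, and without Gata2 f/f 3 it was -0.14. A gene count adds reads of the intact gene to any reads of the fusion transcript, so the level of the fusion was not measured.

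The chromatin tethers Men1 and Psip1 lay on opposite sides of 0. Men1, which encodes menin, the bridge between MLL and LEDGF, was at 84.5, 71.1 and 41.7 CPM in libraries labelled Gata2 KO 1, 2 and 3, against 66.5, 61.1 and 54.9 CPM in Gata2 f/f 1, 2 and 3. All 3 Gata2 f/f values fell inside the wider Gata2 KO range. The means were 65.8 ± 21.9 CPM in Gata2 KO and 60.8 ± 5.81 CPM in Gata2 f/f, a log2 fold change of 0.11 ± 0.29 (edgeR, adjusted p = 1.00). Without the library labelled Gata2 KO 1 it was -0.13. Men1 (ENSMUSG00000024947.16) lies on GRCm38 chromosome 19, 6334979 to 6340891, plus strand.

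Psip1, which encodes LEDGF, a reader of methylated histone H3 over active gene bodies, was the one gene of the 9 with a lower value in the Gata2 KO library of every number. It was at 52.6, 52.7 and 15.9 CPM in libraries labelled Gata2 KO 1, 2 and 3, against 69.2, 57.9 and 29.6 CPM in Gata2 f/f 1, 2 and 3. Both libraries numbered 3 were low, and the genotypes overlapped. The log2 differences of Gata2 KO minus Gata2 f/f within numbers 1, 2 and 3 were -0.40, -0.14 and -0.90, a layout that 17.7% of all tested genes shared in direction. The means were 40.4 ± 21.2 CPM in Gata2 KO and 52.3 ± 20.4 CPM in Gata2 f/f, a log2 fold change of -0.37 ± 0.51 (edgeR, adjusted p = 1.00) with a 95% interval of -1.56 to 0.82. With the library number as a block it was -0.47 ± 0.20 (edgeR, unadjusted p = 0.0556, adjusted p = 0.477). In DESeq2 with that block it was -0.49 ± 0.25 (unadjusted p = 0.0454, adjusted p = 0.442). Without the block it was -0.61 with the library labelled Gata2 KO 2 left out and -0.01 with Gata2 KO 3 left out. Psip1 (ENSMUSG00000028484.16, GRCm38 chromosome 4, 83455680 to 83486459, minus strand) shares exon sequence with Snapc3 on the opposite strand, which had 309 to 349 counts in Gata2 KO and 368 to 462 in Gata2 f/f. Psip1 had 379 to 1101 counts in Gata2 KO and 744 to 1299 in Gata2 f/f. The use of strand in counting is not given in the sources used here, so reads of the shared sequence may be split between Psip1 and Snapc3.

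Dot1l, the histone methyltransferase that the fusion partner recruits, followed the layout of Kmt2a. Dot1l (ENSMUSG00000061589.14, GRCm38 chromosome 10, 80755206 to 80795461, plus strand) was at 101, 57.4 and 24.0 CPM in libraries labelled Gata2 KO 1, 2 and 3, against 70.9, 46.1 and 30.3 CPM in Gata2 f/f 1, 2 and 3. The 3 Gata2 f/f values lay between the lowest and the highest of Gata2 KO. Dot1l averaged 60.7 ± 38.4 CPM in Gata2 KO and 49.1 ± 20.5 CPM in Gata2 f/f. Its log2 fold change of 0.31 ± 0.53 (95% interval -0.94 to 1.56; edgeR, adjusted p = 1.00) was the highest of the 9, and without the library labelled Gata2 KO 1 it was -0.28.

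Of the YEATS-domain paralogues, which bind acylated histone H3, Mllt1 was the more abundant per kilobase of exon and Mllt3 was the lowest of the 9. Mllt1, which encodes ENL (ENSMUSG00000024212.8, GRCm38 chromosome 17, 56892611 to 56935415, minus strand), was at 62.7, 40.4 and 24.6 CPM in libraries labelled Gata2 KO 1, 2 and 3, against 57.4, 38.8 and 33.9 CPM in Gata2 f/f 1, 2 and 3. In both genotypes number 1 was high and number 3 low, the genotypes overlapped, and the log2 fold change was -0.03 ± 0.38. Mllt3 encodes AF9, the partner in an MLL-AF9 fusion (ENSMUSG00000028496.17, GRCm38 chromosome 4, 87769925 to 88033364, minus strand). Mllt3 was at 7.40, 6.24 and 4.03 CPM in libraries labelled Gata2 KO 1, 2 and 3, against 5.99, 4.33 and 4.34 CPM in Gata2 f/f 1, 2 and 3. These values rest on 96 to 155 counts in Gata2 KO and 97 to 109 in Gata2 f/f. Both Gata2 KO 1 and the library labelled Gata2 KO 2 lay above all 3 Gata2 f/f libraries and Gata2 KO 3 lay below them, and the log2 fold change was 0.27 ± 0.35 (95% interval -0.55 to 1.09). It was 0.06 without Gata2 KO 1 and 0.46 without Gata2 KO 3. Neither gene passed edgeR's test (adjusted p = 1.00 for each). As with Kmt2a, counts for Mllt3 may include reads from the fusion transcript.

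The ratio of the paralogues per kilobase, Mllt3 over Mllt1, was 0.0385, 0.0505 and 0.0535 in libraries labelled Gata2 KO 1, 2 and 3, against 0.0340, 0.0364 and 0.0419 in Gata2 f/f 1, 2 and 3. Only Gata2 KO 1 fell inside the Gata2 f/f range. The mean log2 ratio was -4.41 ± 0.25 in Gata2 KO and -4.75 ± 0.15 in Gata2 f/f, a difference of 0.33 that did not pass a two-sided exact permutation test (p = 0.2, where 3 against 3 libraries cannot go below 0.1). Within numbers 1, 2 and 3 the log2 ratio was higher in the Gata2 KO library by 0.18, 0.47 and 0.35. An exact sign-flip permutation test of these paired differences, added with the data already seen, gave p = 0.25 (two-sided), the smallest that 3 pairs allow, so neither test could reach 0.05 in this design. With the longest transcript as the length, the ratio was 0.0707 to 0.0981 in Gata2 KO and 0.0625 to 0.0768 in Gata2 f/f, and the log2 difference between genotypes was the same.

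The scaffold genes of the super elongation complex, Aff1 and Aff4, were also uncalled, and their spread was wider in Gata2 KO than in Gata2 f/f. Aff1, which encodes AFF1, itself a frequent fusion partner of MLL (ENSMUSG00000029313.18, GRCm38 chromosome 5, 103692374 to 103855322, plus strand), was at 222, 116 and 68.0 CPM in libraries labelled Gata2 KO 1, 2 and 3, against 138, 107 and 128 CPM in Gata2 f/f 1, 2 and 3. The Gata2 KO libraries held both the highest and the lowest value. The log2 fold change was 0.12 ± 0.41 (edgeR, adjusted p = 1.00), but its sign turned with the method: it was -0.03 with the replicate block and -0.45 without the library labelled Gata2 KO 1. Aff4, which encodes the scaffold of most super elongation complexes (ENSMUSG00000049470.13, GRCm38 chromosome 11, 53350833 to 53421830, plus strand), was at 64.3, 47.5 and 18.5 CPM in libraries labelled Gata2 KO 1, 2 and 3, against 54.8, 45.8 and 40.7 CPM in Gata2 f/f 1, 2 and 3. Only Gata2 KO 3 stood well below the rest, and the log2 fold change was -0.12 ± 0.43 (edgeR, adjusted p = 1.00), or 0.22 without that library. The ratio of Aff1 over Aff4 per kilobase was 4.92, 3.48 and 5.23 in libraries labelled Gata2 KO 1, 2 and 3, against 3.58, 3.32 and 4.47 in Gata2 f/f 1, 2 and 3. The difference in mean log2 ratio, 0.25, did not pass the exact permutation test (two-sided, p = 0.3; both ratios were tested, and the smallest p possible was 0.1). Within numbers 1, 2 and 3 this log2 ratio was higher in the Gata2 KO library by 0.46, 0.07 and 0.23 (exact sign-flip permutation test, two-sided, p = 0.25, again the smallest possible).

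Cdk9, the kinase of P-TEFb, varied least. Cdk9 (ENSMUSG00000009555.16, GRCm38 chromosome 2, 32705784 to 32713076, minus strand) was at 149, 149 and 118 CPM in libraries labelled Gata2 KO 1, 2 and 3, against 127, 124 and 143 CPM in Gata2 f/f 1, 2 and 3. All 6 libraries lay within a 1.27-fold range, and 2.24% of tested genes had a narrower one. The means were 138 ± 18.0 CPM in Gata2 KO and 131 ± 10.2 CPM in Gata2 f/f, a log2 fold change of 0.08 ± 0.21 (edgeR, adjusted p = 1.00). Its 95% interval of -0.41 to 0.57 was the narrowest of the 9. Counts cover reads without molecular identifiers, so intervals from counts alone would cover counting error only.

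**Figure D2:**
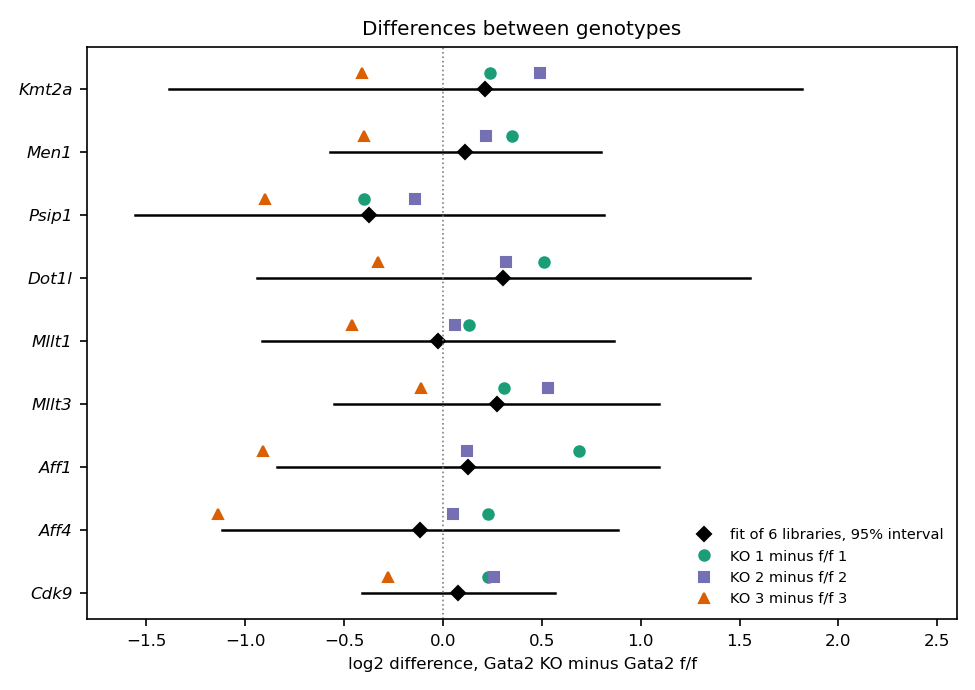
Log2 fold change of Gata2 KO over Gata2 f/f for each of the 9 genes from edgeR, with its 95% interval (points and bars), and the log2 difference of Gata2 KO minus Gata2 f/f within each library number (coloured symbols). Every interval spans 0, and the values within number 3 are below 0 for all 9 genes.

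Levels of different genes were compared per kilobase of merged exon, as CPM per kilobase averaged over all 6 libraries. Cdk9 was highest at 29.2 ± 2.96, followed by Men1 at 16.5 ± 3.81, Aff1 at 13.7 ± 5.43, Mllt1 at 11.0 ± 3.69 and Psip1 at 9.12 ± 3.88 (SD, n = 6). Below them were Dot1l at 6.31 ± 3.25, Aff4 at 3.37 ± 1.15, Kmt2a at 1.94 ± 1.27 and Mllt3 at 0.449 ± 0.113. Of neighbours in that order, only Cdk9 and Men1 at the top, and Kmt2a and Mllt3 at the bottom, had ranges over the libraries that did not overlap. The range was 25.5 to 32.3 for Cdk9, against 10.9 to 22.0 for Men1, and 0.706 to 3.80 for Kmt2a, against 0.336 to 0.617 for Mllt3. Dot1l stood above Aff4, and Aff4 above Kmt2a, in 6 of 6 libraries even though their ranges overlapped. With the longest transcript as the length, Psip1 (14.3) and Mllt1 (11.8) changed places and the ranges of Kmt2a and Mllt3 overlapped, since the level of Mllt3 was then 0.888 ± 0.224.

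**Figure D3:**
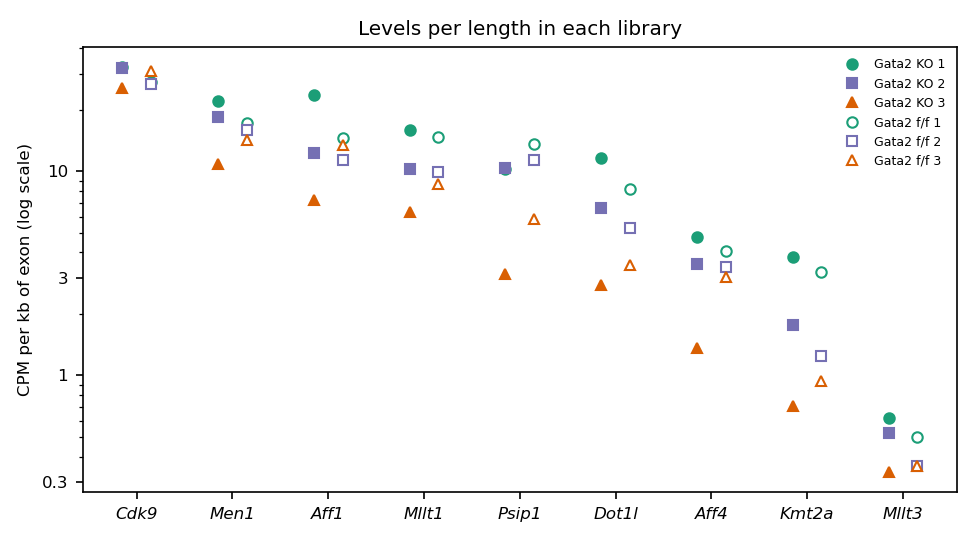
Level of each of the 9 genes in CPM per kilobase of merged exon on a log axis, ordered from high to low, with Gata2 KO libraries as filled points on the left and Gata2 f/f libraries as open points on the right of each gene. Cdk9 (29.2 on average) and Mllt3 (0.449) mark the ends of the order.

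RefSeq promoter windows (GRCm38.p6) were given for 8 of the 9 genes, 12 windows in all. Of these, 8 windows of 7 genes held at least 20 CG dinucleotides in the 250 bases before the start site, where 17.9% of all 32817 windows did. Hexamers of the kind that GATA factors bind were searched on both strands: AGATAA was the first spelling, while TGATAA was the second, AGATAG served as the third and TGATAG stood as the fourth. One of these was found in 2 of the 12 windows, where 26.6% of all windows held one, so the count over these few windows was near the background share. A match is a description of the letters and not a bound site. The sequences below show a CpG-rich window and the only matches: the Kmt2a promoter (chr9:44881297-44881539, minus strand, 29 CG dinucleotides in capitals), the window of an internal Mllt3 start (chr4:87806324-87806573, minus strand, AGATAG in capitals) and the window of the second Aff1 start (chr5:103754346-103754563, plus strand, with CTATCT in capitals, the reverse complement of AGATAG). The Kmt2a and Aff1 windows stop short of annotated exons.
Kmt2a promoter: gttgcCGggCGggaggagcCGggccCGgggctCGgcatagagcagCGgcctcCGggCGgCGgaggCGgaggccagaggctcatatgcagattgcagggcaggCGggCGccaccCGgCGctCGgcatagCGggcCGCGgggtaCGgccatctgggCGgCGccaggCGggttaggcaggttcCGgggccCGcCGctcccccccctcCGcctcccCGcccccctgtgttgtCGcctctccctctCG
Mllt3 internal start: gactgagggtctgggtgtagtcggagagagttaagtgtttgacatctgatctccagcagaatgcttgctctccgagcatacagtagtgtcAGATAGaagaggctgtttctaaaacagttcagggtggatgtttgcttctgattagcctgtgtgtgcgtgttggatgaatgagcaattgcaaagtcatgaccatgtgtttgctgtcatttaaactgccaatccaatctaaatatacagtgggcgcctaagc
Aff1 second start: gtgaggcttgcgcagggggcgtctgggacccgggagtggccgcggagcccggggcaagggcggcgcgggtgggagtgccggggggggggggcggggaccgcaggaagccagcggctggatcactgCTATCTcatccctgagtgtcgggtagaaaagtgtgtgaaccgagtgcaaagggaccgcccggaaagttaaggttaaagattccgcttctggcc

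The 9 genes shared their lowest library, but not their full order over libraries. All 9 were lowest in Gata2 KO 3, and 8 of the 9 were highest in Gata2 KO 1, with Psip1 highest in Gata2 f/f 1. Among the Gata2 f/f libraries the order differed between genes. Kmt2a, Men1, Psip1, Dot1l, Mllt1 and Aff4 were lowest in number 3. Aff1, Cdk9 and, by little, Mllt3 were lowest in number 2, and Cdk9 was highest in number 3. Over all tested genes 31.9% were lowest in Gata2 KO 3 and 19.5% were highest in Gata2 KO 1. Within numbers 1 and 2, 8 of the 9 were higher in the Gata2 KO library, and within number 3, 0 of 9 were. Of all tested genes, 52.6%, 54.1% and 49.7% were higher in the Gata2 KO library of numbers 1, 2 and 3. The layout of higher, higher and lower over the 3 numbers was shown by 8 of the 9 genes and by 15.7% of all tested genes. Among tested protein-coding genes with a longest transcript over 3000 bases, as each of the 9 has, the share was 22.6%. The 9 genes were chosen together, and their values come from the same 6 libraries, so these counts describe the libraries and are no test.

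Levels also differed with transcript length in some of the libraries. The longest annotated transcript of each of the 9 exceeds 3000 bases, from 3002 for Men1 to 16470 for Kmt2a, and 5 exceed 6000. Among all tested protein-coding genes with a longest transcript over 6000 bases, the median log2 deviation from the mean of the 6 libraries was 0.33 in Gata2 KO 1 and -0.50 in Gata2 KO 3, and 0.23 in Gata2 f/f 1. Under 1500 bases it was -0.24 in Gata2 KO 1 and 0.47 in Gata2 KO 3, and -0.16 in Gata2 f/f 1. Deviations in the other 3 libraries stayed within 0.05 of 0 in both classes. The share of genes lowest in Gata2 KO 3 was 44.5% over 3000 bases and 56.4% over 6000 bases. Over 6000 bases, 57.5%, 58.3% and 24.0% of genes were higher in the Gata2 KO library of numbers 1, 2 and 3.

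The individual genes deviated by more than the median of their length class in places, and Mllt3 (-0.37 in Gata2 KO 3) by less. Genes of a class lie on both sides of its median, and the spread within classes was not examined. These values are therefore no test of the part of length. In Gata2 KO 3, Kmt2a deviated by -1.19, Psip1 by -1.38, Aff4 by -1.19 and Dot1l by -1.02 on the log2 scale, against -0.50 for the class over 6000 bases. Psip1, with a longest transcript of 3251 bases, belongs to the class of 3000 to 6000 bases, whose median in that library was -0.13. Kmt2a, Psip1 and Dot1l were also low in Gata2 f/f 3, at -0.78, -0.49 and -0.69. In that library the class over 6000 bases was at 0.00, and the class of 3000 to 6000 bases, that of Psip1, was at 0.05. Cdk9, at 3565 bases, deviated by -0.19 at the lowest.

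Each library's trend with transcript length was taken out by an offset, an alternative added with the data already seen. The standard error of the log2 fold change was then smaller for Kmt2a, Aff1, Aff4, Dot1l, Mllt3, Mllt1 and Cdk9. For Psip1 and Men1 it was no smaller. It was 0.40 with the offset and 0.68 without it for Kmt2a, 0.25 and 0.41 for Aff1, and 0.25 and 0.43 for Aff4. For Dot1l it was 0.40 and 0.53, for Mllt3 0.28 and 0.35, for Mllt1 0.35 and 0.38, and for Cdk9 0.18 and 0.21. For Psip1 it was 0.51 either way, and for Men1 0.29. The log2 fold changes with the offset were 0.24 for Kmt2a, 0.12 for Aff1, -0.11 for Aff4 and -0.40 for Psip1, and 0 of 13744 genes were called by edgeR (183 at an unadjusted p under 0.05). With the offset and the replicate block together, the smallest adjusted p of the 9 in edgeR was 0.313, that of Psip1 (-0.49 ± 0.17, unadjusted p = 0.0275). That fit held 1909 of all tested genes at an unadjusted p under 0.05 and called 0. Base composition differed between libraries too: genes with over 54% GC had a median log2 deviation of 0.30 in Gata2 KO 3 and -0.26 in Gata2 f/f 2, and those under 42% GC had -0.28 in Gata2 KO 3 and 0.24 in Gata2 f/f 2. The parts of transcript length and of base composition in the layout of the 9 genes were not tested, and both trends lay in the same libraries.

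**Figure D4:**
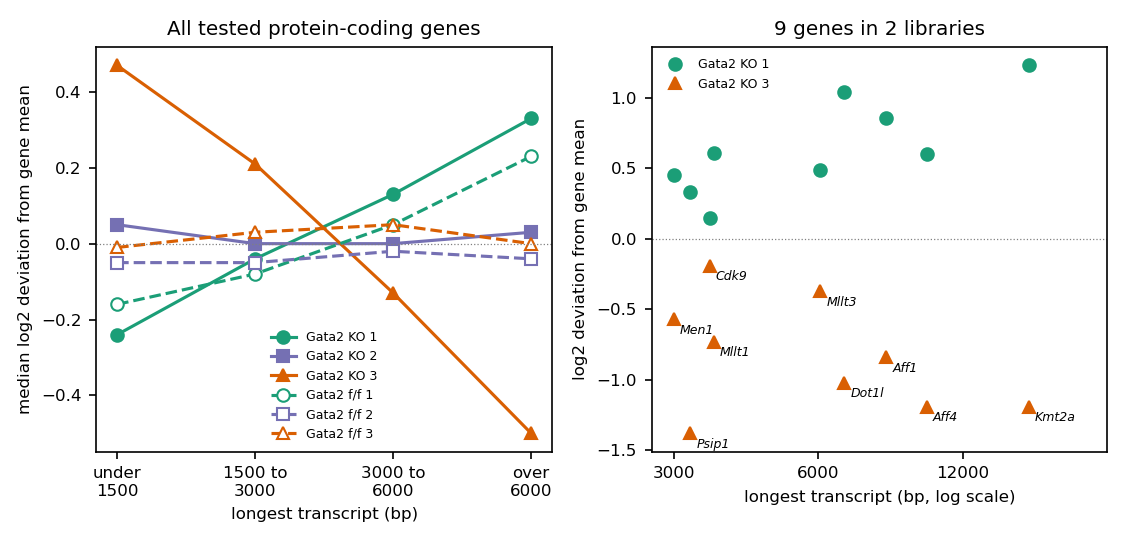
Log2 deviation from a gene's mean over the 6 libraries (vertical axes) against the longest transcript in bases. The left panel gives class medians of all tested protein-coding genes in each library, and the right panel gives the 9 genes in Gata2 KO 1 and 3, with length on a log axis. Medians of the longest class are 0.33 in Gata2 KO 1 and -0.50 in Gata2 KO 3.

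Markers of mature myeloid cells were highest in Gata2 KO 3, the library in which the 9 genes were lowest. The late neutrophil markers (9 of 9 detected) summed to 1716, 586 and 2995 CPM in libraries labelled Gata2 KO 1, 2 and 3, against 263, 557 and 1790 CPM in Gata2 f/f 1, 2 and 3. The monocyte and macrophage markers (8 of 8 detected, led by the lysozyme gene Lyz2) summed to 1910, 1521 and 6206 CPM in libraries labelled Gata2 KO 1, 2 and 3, against 860, 977 and 4860 CPM in Gata2 f/f 1, 2 and 3. Gata2 f/f 3 was therefore the highest Gata2 f/f library in these markers. It was the lowest of them in Kmt2a, Men1, Psip1, Dot1l, Mllt1 and Aff4, but not in Aff1, Mllt3 or Cdk9. Gata2 KO 1 went the other way: 8 of the 9 genes were highest in it. Yet its late neutrophil markers (1716 CPM) were near those of Gata2 f/f 3. Its monocyte and macrophage markers (1910 CPM) were above those of the library labelled Gata2 KO 2 and of Gata2 f/f 1 and 2. The part of cell maturation in the levels of the 9 genes was not tested.

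Beyond the 9 genes, the wider machinery was described by 8 lists of 84 genes, of which 81 were tested. Of the 81, 0 were called by edgeR over all genes tested, 39 had positive log2 fold changes, the median was -0.02, and 51 were lowest in Gata2 KO 3. MLL-family methyltransferases and their subunits had 10 positive and 6 negative values (median 0.08), partners of menin and LEDGF 1 positive and 5 negative (median -0.08), and the DOT1L and YEATS list 1 positive and 4 negative (median -0.13). The super elongation complex partners had 2 positive and 5 negative values (median -0.25), with Ell3 and Eaf2 not tested. The reservoir and recruiters of P-TEFb had 5 positive and 6 negative values (median -0.003), the pausing and elongation factors 10 and 7 (median 0.02), the PAF1 complex 3 and 3 (median -0.02) and the MLL fusion targets 7 and 7 (median -0.03, Zfp521 not tested). The median over all tested genes was 0.02.

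Among histone methyltransferase and tether genes, the values closest to the threshold were small. Setd1b, a methyltransferase of the SET1 family, was at 55.0 ± 35.0 CPM in Gata2 KO and 38.4 ± 9.86 CPM in Gata2 f/f (log2 fold change 0.52 ± 0.48). Dpy30, a subunit shared by these enzymes, was at 78.4 ± 16.4 CPM in Gata2 KO and 99.6 ± 24.1 CPM in Gata2 f/f (-0.35 ± 0.27), and Cxxc1, the CpG-binding subunit of SET1 complexes, was at 90.4 ± 12.1 CPM in Gata2 KO and 75.9 ± 9.67 CPM in Gata2 f/f (0.25 ± 0.22). Mllt10, which encodes the DOT1L partner AF10, was at 34.0 ± 18.0 CPM in Gata2 KO and 43.3 ± 6.85 CPM in Gata2 f/f, with 13.3 CPM in Gata2 KO 3. Npm1, which encodes the nucleolar chaperone nucleophosmin, had a log2 fold change of -0.46 ± 0.35, and Yeats4, a YEATS-domain subunit gene of acetyltransferase complexes, had -0.10 ± 0.21. Of the menin and LEDGF partners, Jund, an AP-1 factor that menin binds, had 0.49 ± 0.38 (0.06 without Gata2 KO 3), and the genes of the LEDGF-binding proteins Cdca7l and Pogz had -0.36 ± 0.39 and -0.13 ± 0.42. Each had an adjusted p of 1.00 in edgeR's test.

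Among elongation genes, Ccnt1, which encodes cyclin T1, the main partner of CDK9 in P-TEFb, had no overlap between the genotypes. The same held for 5.42% of all tested genes, and Ccnt1 was named for its small p within its list. Ccnt1 was at 67.9, 69.5 and 56.7 CPM in libraries labelled Gata2 KO 1, 2 and 3, against 81.3, 81.1 and 75.0 CPM in Gata2 f/f 1, 2 and 3. This gave a log2 fold change of -0.29 ± 0.20 (edgeR, adjusted p = 1.00, unadjusted p = 0.186). Its partner Cdk9 had a log2 fold change of 0.08. Ell2, an elongation factor of the complex, had -0.51 ± 0.36 and its paralogue Ell had 0.30 ± 0.31. Tcea1, which encodes an elongation factor that rescues stalled polymerase, was at 66.2 ± 17.8 CPM in Gata2 KO and 94.0 ± 21.8 CPM in Gata2 f/f. It was lower in the Gata2 KO library of each number (-0.56, -0.46 and -0.52), as were 17.7% of all tested genes. Elob, the elongin B gene, had 117, 168 and 291 CPM in libraries labelled Gata2 KO 1, 2 and 3, against 108, 124 and 154 CPM in Gata2 f/f 1, 2 and 3. Nelfe, a subunit gene of the pausing factor NELF, had a log2 fold change of 0.29 ± 0.23. In the list of the P-TEFb reservoir and recruiters, Mepce, which caps the inhibitory RNA of the reservoir, had 0.22 ± 0.21. In the same list Ppm1g, a phosphatase gene, had -0.21 ± 0.25 and Mnat1, a subunit gene of the CDK-activating kinase, had -0.22 ± 0.27. Among subunits of the PAF1 complex, which travels with elongating polymerase, Cdc73 had -0.39 ± 0.30, Paf1 had 0.13 ± 0.21 and Leo1 had 0.16 ± 0.28. None of these genes passed edgeR's test (adjusted p = 1.00 for each).

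Among the tested genes that MLL fusions are known to activate, Mef2c and Hoxa9 had no overlap between the genotypes. Mef2c, a MADS-box factor gene, was at 175, 145 and 151 CPM in libraries labelled Gata2 KO 1, 2 and 3, against 234, 215 and 212 CPM in Gata2 f/f 1, 2 and 3. Mef2c had a log2 fold change of -0.49 ± 0.20 (unadjusted p = 0.0433, adjusted p = 1.00, edgeR). Hoxa9, a homeobox gene needed by MLL-fusion leukaemia, was at 231, 207 and 197 CPM in libraries labelled Gata2 KO 1, 2 and 3, against 168, 178 and 174 CPM in Gata2 f/f 1, 2 and 3 (0.29 ± 0.20). Genes were named here for their small p, so their lack of overlap adds no support, and 5.42% of all tested genes had none either.

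The genes whose levels followed Kmt2a and Mllt3 most closely were found by Pearson's r of log2 CPM over the 6 libraries among 9924 genes averaging at least 5 CPM. The closest to Kmt2a were Kmt2c (r = 0.996), another MLL-family methyltransferase gene with a longest transcript of 14967 bases, Tet3 (r = 0.996, 10904 bases) and Tnrc6a (r = 0.995, 8183 bases). Kmt2c was at 46.0, 23.6 and 9.45 CPM in libraries labelled Gata2 KO 1, 2 and 3, against 39.0, 17.9 and 14.2 CPM in Gata2 f/f 1, 2 and 3. The closest to Mllt3 were Tap2 (r = 0.991), Ripor1 (r = 0.988) and Tfip11 (r = 0.987), with longest transcripts of 3442, 4108 and 3560 bases. These r values share the same libraries and their depth, and all 6 genes have longest transcripts over 3000 bases.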

How the data were processed

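RNA-seq of 6 samples was used. The authors deposited raw whole-number gene counts in 1 table. Per the submitters' processing notes, mm10, HTSeq, kallisto and DESeq2 were used, in roles, order and versions not stated; annotation and strand use were not given in the sources used here. Gene IDs (49326 of 49585) were matched without version to GENCODE M21 (GRCm38, the assembly of mm10) for symbols, coordinates and lengths; unmatched rows held 0.00962% of counts. Titles gave genotype and number.

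Genes were kept by filterByExpr (minimum count 10), scaled by TMM and tested with edgeR 4.0.16's quasi-likelihood test (robust, no block, Benjamini-Hochberg over 13744 genes, threshold 0.05) in R 4.3.3. Alternatives used DESeq2 1.42.0, limma 3.58.1 (voom), other scalings and filters, a threshold of 0.01, a replicate block and libraries left out; ratios used scipy 1.17.1. The code was tested on simulated data. Log values used a prior count of 2. A loess of the log2 deviation on log transcript length (span 0.5) gave the length offset.

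The genes and lists were chosen with earlier results of these data known. Named were the 9 genes, Gata2, the 3 genes of smallest p in each list, and the 3 genes most like Kmt2a and Mllt3. A gene that this rule names is not reported here. Deviations from the group means correlated at 0.294, 0.555 and 0.653 between libraries numbered 1, 2 and 3, all over 0.1. Equal numbers were therefore treated as pairs in the differences within numbers and in the fits with a replicate block. The main test used no block and ignored these pairs, so its standard errors, intervals and p-values are unpaired. Libraries of unequal number also passed 0.1, at 0.455 for the library labelled Gata2 KO 2 with Gata2 f/f 1 and 0.104 for Gata2 KO 1 with Gata2 f/f 2. The bound therefore did not single out equal numbers. What a number means is not in the labels. The dispersion (biological coefficient of variation) was 0.256 with the block and 0.426 without it.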

Additional observations from a re-analysis of the deposited data

How the results depend on the processing

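None of the 9 genes and none of the 81 tested pathway genes was called under any alternative run, and of the recomputed log2 fold changes of named genes 569 kept their direction and side of the threshold, against 25 that turned. The count over all genes was 0 with edgeR and limma voom, 7 with DESeq2, 222 with DESeq2 and the replicate block, and 54 with the replicate block once the library labelled Gata2 KO 2 was left out. In that last fit Gata2 f/f 2 had no partner, so the genotype difference rested on the pairs numbered 1 and 3. Gata2 there had a log2 fold change of -2.36 (edgeR, adjusted p = 0.00356). That value was fixed in part by leaving out the library labelled Gata2 KO 2 for its Gata2 level. Kmt2a (-0.083), Men1 (-0.029), Cdk9 (-0.028) and Aff1 (-0.11) turned in the same fit. With the replicate block in all 6 libraries, Aff1 turned to -0.03 in edgeR and -0.05 in DESeq2, and to -0.034 in limma voom without it; the block changed no other member's direction and no call. Without both libraries numbered 3, Mllt1 (0.068), Aff4 (0.12) and Pogz (0.027) turned. Leaving out each library in turn gave log2 fold changes of -0.56 to 0.87 for Kmt2a, -0.13 to 0.33 for Men1, -0.28 to 0.66 for Dot1l, -0.43 to 0.23 for Mllt1, -0.45 to 0.42 for Aff1, -0.53 to 0.22 for Aff4, -0.10 to 0.85 for Setd1b, -0.63 to 0.013 for Mllt10, -0.00013 to 0.20 for Paf1, -0.081 to 0.33 for Leo1, -0.50 to 0.18 for Pogz, and, with no turn of sign, -0.70 to -0.012 for Psip1, 0.057 to 0.46 for Mllt3, 0.003 to 0.16 for Cdk9 and 0.059 to 0.73 for Jund. The cause of these turns was not tested. With 3 libraries a group, the unpaired 95% interval of Kmt2a was -1.39 to 1.82, so differences of 2-fold in either direction lay within it. Standard errors were smaller with the library number as a block in edgeR. There the log2 fold changes were 0.11 ± 0.23 for Kmt2a, 0.17 ± 0.21 for Dot1l and -0.09 ± 0.19 for Mllt1.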
